A study of Mus musculus with 12 samples.

Results

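Collagen chain genes were followed in mouse embryonic fibroblasts after loss of an RNA-binding protein and after a cytokine. They were taken as the protein-coding genes whose symbol is Col, a number, the letter a and a number, and 34 of the 44 that met this, among 48709 genes in all, had enough counts to be tested. The fibroblasts came from wild-type C57BL/6 embryos aged E12.5–13.5. All cells were transfected, either with an siRNA against IMP2 (siIMP2) or with a control siRNA (siControl), and 24 hours later they received IL-17 at 200 ng/mL for 8 hours (siIMP2_IL17 and siControl_IL17) or nothing. IMP2, encoded by Igf2bp2, binds mRNA and reads N6-methyladenosine in it, and IL-17 is an inflammatory cytokine to which stromal cells respond. Each of the 4 groups held 3 RNA-seq libraries. Embryonic fibroblasts are a mixed mesenchymal culture and no line of 1 cell type, and no group analysed here was left untransfected.

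Collagens are the main proteins of the extracellular matrix. Every chain holds stretches of repeated glycine-containing triplets, and chains wind in threes into a triple helix in the endoplasmic reticulum before secretion. Fibrillar collagens (types I, II, III, V, XI, XXIV and XXVII) build the cross-banded fibres of skin, tendon and cartilage. Type IV forms the sheet-like network of basement membranes, type VI the beaded filaments around cells, and types VIII and X hexagonal lattices. The fibril-associated collagens with interrupted triple helices (FACIT) sit on fibril surfaces, and multiplexins lie in basement membrane zones. Fibroblasts are the textbook source of types I, III, V and VI. The 44 genes held 11 fibrillar, 6 basement membrane, 6 beaded filament, 9 FACIT, 4 transmembrane, 3 hexagonal and 2 multiplexin chains, with Col7a1 of anchoring fibrils and Col26a1 and Col28a1 outside these classes.

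Total counts per library ranged from 33841054 to 44433699, and values below are given as CPM, counts scaled to a common library size,, in which 1 CPM stood for 31.9 to 50.9 reads, or as TPM, the length-corrected share of transcripts in a library, where genes are compared with each other. The titles of replicates 1 and 2 of every group begin with NA and those of replicate 3 with RB160. Both sets are in every group, the set was a term of the fit, and 69.5% of all genes tested differed between them. The siRNA target Igf2bp2 stood at 22.3, 18.6 and 24.6 CPM in siIMP2 against 167, 146 and 134 CPM in siControl, and at 24.3, 18.4 and 28.2 CPM in siIMP2_IL17 against 166, 156 and 139 CPM in siControl_IL17. Its groups did not overlap, and its log2 change was -2.77 ± 0.15 (SE) in unstimulated cells. The labels do not tell whether replicates were separate cultures, and p-values therefore reflect variation among the libraries at hand, which could be technical. In bulk RNA, fewer cells of a type and less RNA per cell cannot be told apart.

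Fibroblast markers moved with the siRNA. Of 10 listed fibroblast markers 8 were tested, and 0 were higher and 6 lower in siIMP2 than in siControl, among them Pdgfra (-2.23 on the log2 scale), Dcn (-2.65), Lum (-2.33) and Prrx1 (-0.89), while Vim stayed at -0.02 (edgeR adjusted p = 1.54e-07, 5.49e-06, 0.00134, 2.44e-06 and 0.829). Over all genes tested, 16.1% were higher and 16.7% lower in this comparison. The summed list spanned 2950.2 to 3931 CPM with the IMP2 siRNA and 3269.6 to 4359 CPM with the control siRNA, and none of the 10 was at 0 in all libraries, although Dpt and Fap reached at most 0.190 and 0.333 CPM and Thy1 5.90 CPM. The smooth muscle and pericyte list spanned 467 to 871 CPM with the IMP2 siRNA and 244 to 439.6 CPM with the control siRNA, with Myh11, Cspg4 and Smtn higher and Rgs5 and Notch3 lower of 5 tested in unstimulated cells. The chondrocyte list spanned 30.1 to 54.0 CPM with the IMP2 siRNA and 32.4 to 77.9 CPM with the control siRNA, with Matn1 and Hapln1 at 0 in every library and Sox5 lower. The osteoblast list, most of it Spp1, spanned 861 to 1385 CPM with the IMP2 siRNA and 1262 to 2950.4 CPM with the control siRNA, and Spp1 was lower, while Bglap, Ibsp and Dmp1 reached at most 0.0877, 0.0476 and 0.118 CPM. Lists for endothelium, epithelium, Schwann cells, skeletal muscle and macrophages each summed to at most 6.09 CPM in a library. The part of these markers in the collagen results was not tested.

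Collagen genes took 2.20% to 3.34% of the counts in a library. Col1a1, the chain present in 2 copies in the type I trimer, was the most abundant, with a median of 3820.3 TPM over the 12 libraries, and its partner Col1a2 followed at 1141 TPM. Together they made 50.2% to 62.0% of collagen TPM. The type IV chains Col4a1 and Col4a2, with medians of 694 and 652 TPM, and the type V chains Col5a1 and Col5a2, with 673 and 392 TPM, came next. Neighbours in this order, such as Col4a1 and Col5a1, overlapped in their values over the libraries. Col6a3 (374 TPM), Col6a1 (309 TPM), Col3a1 (187 TPM), Col12a1 (172 TPM) and Col8a1 (102 TPM) were the remaining genes above 100 TPM.

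Below these, 8 genes had medians between 10 and 100 TPM, 5 between 1 and 10 TPM and 20 under 1 TPM. Col3a1, a major fibrillar chain of skin and vessels, was present at a small fraction of Col1a1 in all libraries. The 10 untested genes were Col6a5, Col6a6, Col9a1, Col9a2, Col13a1, Col19a1, Col22a1, Col24a1, Col25a1 and Col26a1, and none of them exceeded 20 counts in any library. Col13a1 and Col25a1, which are transmembrane, and Col26a1 had 0 counts in all 12 libraries, where a count of 0 allows up to 0.00663 CPM over all libraries (3 counts of 452620707, counting error only).

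**Figure D1:**
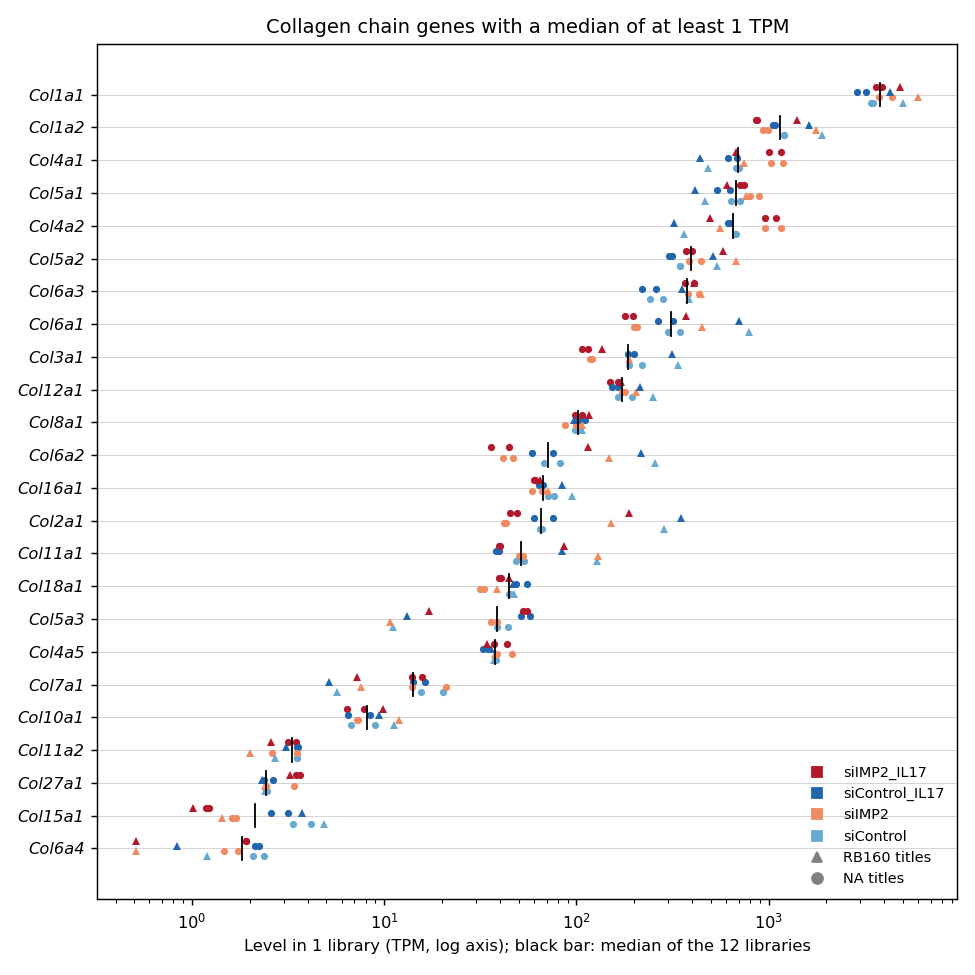
Levels of the collagen chain genes with a median of at least 1 TPM; each symbol is 1 library on a log axis in TPM, coloured by group and shaped by title set, and the black bar is the median of the 12 libraries. Col1a1 leads with a median of 3820.3 TPM, and genes such as Col2a1 and Col5a3 separate by title set more than by treatment.

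Collagen genes moved in both directions with the IMP2 siRNA. In unstimulated cells 7 of the 34 tested collagen genes rose and 15 fell in siIMP2 relative to siControl, where 32.9% of all genes tested were called, 16.1% higher and 16.7% lower (edgeR quasi-likelihood test, Benjamini-Hochberg adjusted p under 0.05). After IL-17, 10 rose and 12 fell in siIMP2_IL17 relative to siControl_IL17, against 33.4% of all genes called, 16.7% higher and 16.7% lower. Changes below are log2 fold changes ± SE, and called means an adjusted p under that threshold. The median log2 change of the tested collagen genes was -0.11 and -0.05, against 0.00 and -0.01 for all genes. These counts describe only the genes that passed the filter on low counts.

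Col4a1, Col4a2, Col5a1, Col5a2, Col6a3, Col1a1 and Col4a3 rose in both comparisons, and 12 genes fell in both. Col6a4, Col16a1 and Col18a1 were called, as lower, in unstimulated cells alone, and Col4a4, Col4a5 and Col27a1, as higher, after IL-17 alone, but the test of a difference between the 2 siRNA effects called none of them. All 22 calls of each comparison had the same sign within both title sets. The sets hold the same libraries as the fit that made the calls, so agreement was favoured in advance. The share of all called genes with the same agreement was not computed. Without the title-set term, Col3a1 and Col15a1 were the only collagen genes called in either comparison, and with the NA libraries alone the counts were 20 and 21. Those counts include genes not called in the main fit. With the NA libraries alone Col4a3, Col14a1, Col16a1 and Col28a1 lost the unstimulated call, and Col14a1 and Col28a1 the call after IL-17.

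**Figure D2:**
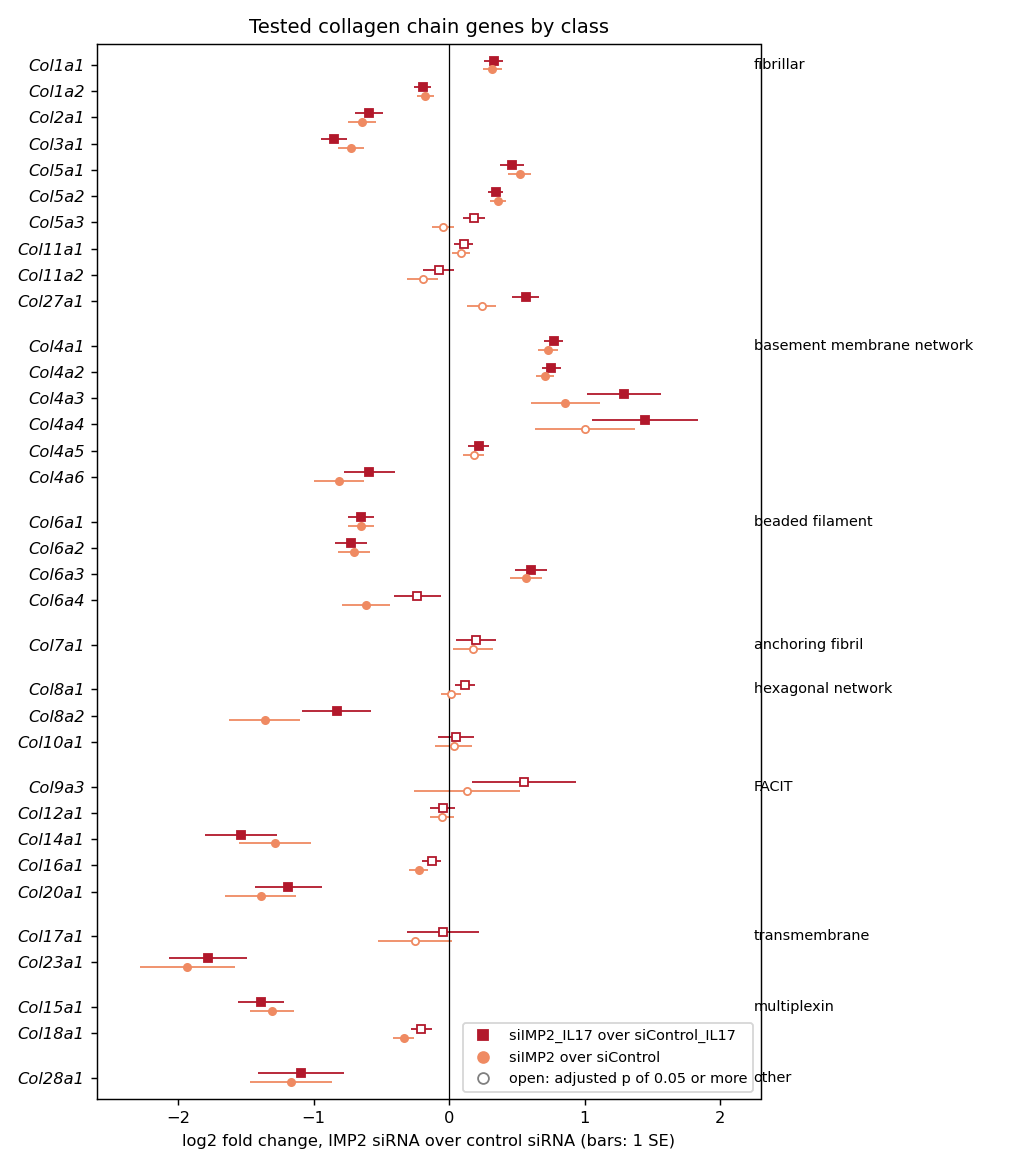
Log2 fold change of each tested collagen chain gene between the IMP2 siRNA and the control siRNA, with and without IL-17, grouped by collagen class; bars are 1 SE and open symbols have an edgeR adjusted p of 0.05 or more. Chains of 1 class lie on both sides of 0, as with Col1a1 and Col3a1, or Col6a3 and Col6a1, and both comparisons place most genes alike.

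Among fibrillar chains, 3 of 10 tested rose and 3 fell in unstimulated cells, where 16.1% of all genes were higher and 16.7% lower. After IL-17, 4 rose and 3 fell, where 16.7% of all genes were higher and 16.7% lower. Counts among 10 genes are too few to tell a trait of the class. Col1a1 had 10039, 11111 and 12361 CPM in siIMP2, against 8333, 8529 and 10014 CPM in siControl. All siIMP2 values lay above all siControl values, siIMP2 replicate 1 by a narrow margin over siControl replicate 3. Col1a1 rose by 0.32 ± 0.07 (edgeR adjusted p = 0.00411), with 0.30 within the RB160 titles and 0.33 within the NA titles. After IL-17 it had 9516, 9907 and 9785 CPM in siIMP2_IL17, against 7967, 7143 and 8180.1 CPM in siControl_IL17, again without overlap, and rose by 0.33 ± 0.07 (edgeR adjusted p = 0.00327). Col1a2 had 4594, 4690.2 and 6673 CPM in siIMP2, against 5448, 5419 and 7045 CPM in siControl. The groups overlapped, the RB160 libraries were high in both, and within each set the siIMP2 values were the lower. Col1a2 fell, with a log2 change of -0.18 ± 0.06 (edgeR adjusted p = 0.0467). That call did not survive leaving out any 1 of 9 libraries (siControl replicates 1, 2 and 3, siIMP2 replicates 1 and 2, siControl_IL17 replicate 2, or any siIMP2_IL17 replicate), with adjusted p from 0.0592 to 0.164. After IL-17 Col1a2 had 4209.8, 4132 and 5270.2 CPM in siIMP2_IL17, against 4974, 4799 and 5738 CPM in siControl_IL17. Its change there was -0.19 ± 0.06 (edgeR adjusted p = 0.0296), and 5 libraries could end the call (siControl_IL17 replicates 1 and 2, and each siIMP2_IL17 replicate; adjusted p 0.0604 to 0.100).

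Col3a1 forms fibrils together with type I collagen. Col3a1 had 482, 448 and 578 CPM in siIMP2, against 803, 689 and 1009.6 CPM in siControl. Every siIMP2 library lay below every siControl library. Col3a1 fell, with a log2 change of -0.72 ± 0.10 (edgeR adjusted p = 0.000119), and after IL-17 of -0.85 ± 0.10 (edgeR adjusted p = 3.43e-05). There the values were 453, 407 and 411 CPM in siIMP2_IL17 against 736, 684 and 901 CPM in siControl_IL17. As a share of all collagen counts it made 1.41% to 1.84% with the IMP2 siRNA and 2.74% to 3.78% with the control siRNA. In the authors' deposited table Col3a1 was the 1 collagen gene with an adjusted p under 0.05, in the siRNA comparison after IL-17, with a log2 fold change of -0.86 and a false discovery rate of 0.0324, and the authors' 3 other comparisons had 0. That table calls the control siRNA group Mock.

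The type V chains, which join type I fibrils and set their diameter, moved the other way. Col5a1 had 2750.2, 2918 and 2027 CPM in siIMP2, against 2251, 2026 and 1210.2 CPM in siControl. Col5a2 had 1501, 1654 and 2038 CPM in siIMP2, against 1235, 1235 and 1571 CPM in siControl. Within each title set the siIMP2 libraries were the higher for both genes, while across sets the groups overlapped. Col5a1 rose by 0.52 ± 0.09 (edgeR adjusted p = 0.000622) and Col5a2 by 0.36 ± 0.06 (edgeR adjusted p = 0.000346). After IL-17 Col5a1 had 2413, 2456 and 1584 CPM in siIMP2_IL17, against 2016, 1724 and 1022 CPM in siControl_IL17. Col5a2 had 1433, 1492 and 1718 CPM in siIMP2_IL17, against 1141, 1099.7 and 1437 CPM in siControl_IL17. Within each set the siIMP2_IL17 libraries were again the higher, and the increases were 0.46 ± 0.09 (edgeR adjusted p = 0.00137) for Col5a1 and 0.34 ± 0.06 (edgeR adjusted p = 0.000486) for Col5a2. Col5a2 and Col3a1 lie tail to tail on chromosome 1, 24614 bases apart, and moved in opposite directions in both comparisons. The third type V chain, Col5a3, was at -0.04 ± 0.08 and was not called.

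Col2a1 had 105, 98.0 and 286 CPM in siIMP2, against 149, 145 and 519.7 CPM in siControl. The RB160 libraries were several times higher in both groups. Within each set siIMP2 was lower, and Col2a1, the main fibrillar chain of cartilage, fell with a log2 change of -0.64 ± 0.11 (edgeR adjusted p = 0.000543). Its sets gave -0.86 within the RB160 titles and -0.54 within the NA titles. Sox9, which encodes the transcription factor that drives cartilage collagens, was at -0.28 and not called (edgeR adjusted p = 0.125), and Sox5 fell by 1.16 on the log2 scale (edgeR adjusted p = 0.000695). Col11a1 and Col11a2, partners of Col2a1 in cartilage fibrils, had log2 changes of 0.09 ± 0.07 and -0.19 ± 0.11 and were not called. Col27a1 was at 0.24 ± 0.10 without IL-17 and rose by 0.56 ± 0.10 (edgeR adjusted p = 0.00111) with it. Col27a1 then had 18.1, 18.4 and 12.9 CPM in siIMP2_IL17, against 13.0, 11.7 and 8.77 CPM in siControl_IL17, the groups overlapping across sets and not within them.

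Col4a1 and Col4a2, the basement membrane chains of most tissues, had the smallest p of the collagen genes that rose. Col4a1 had 2894, 3207 and 1614 CPM in siIMP2, against 1826, 1762 and 1019.6 CPM in siControl. Col4a2 had 2566, 2965 and 1153 CPM in siIMP2, against 1658, 1662 and 733 CPM in siControl. Within each title set every siIMP2 value was above every siControl value. The RB160 siIMP2 library fell below the NA siControl libraries for both genes. Col4a1 rose by 0.73 ± 0.07 (edgeR adjusted p = 1.00e-05) and Col4a2 by 0.71 ± 0.07 (edgeR adjusted p = 1.12e-05). After IL-17 Col4a1 had 2818, 3140.4 and 1440.4 CPM in siIMP2_IL17 against 1792, 1607 and 893 CPM in siControl_IL17, and Col4a2 had 2541, 2821 and 1010.0 CPM in siIMP2_IL17, against 1582, 1528 and 626 CPM in siControl_IL17. The increases were 0.77 ± 0.07 (edgeR adjusted p = 6.45e-06) for Col4a1 and 0.76 ± 0.07 (edgeR adjusted p = 6.56e-06) for Col4a2. Of the Col4a1 reads 80.6% mapped uniquely, and both genes kept both calls in a fit of uniquely mapped gene reads. The 2 chains assemble with each other into the ubiquitous type IV trimer. Type IV chains as a class made 22.0% to 24.3% of collagen TPM with the IMP2 siRNA and 16.4% to 17.2% with the control siRNA in the NA libraries. In the RB160 libraries the class made 10.7% to 11.6% with the IMP2 siRNA and 7.66% to 7.89% with the control siRNA.

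Type IV genes lie in head-to-head pairs that are transcribed away from a shared start region. Col4a1 and Col4a2 (chromosome 8, mm10, 11198423 to 11312826 on the minus strand and 11312805 to 11449287 on the plus strand) overlap by 22 bases at their starts. Their promoter windows, 250 bases before to 50 after each RefSeq start, share 78 bases and are printed because both genes rose by nearly the same amount. Sequences are from RefSeq on GRCm38.p6 and read 5′ to 3′ on the strand of each gene. Capitals mark matches, on either strand, to CCAAT (reverse ATTGG) and GGGCGG (reverse CCGCCC). The Col4a1 window is chr8:11312777-11313076 on the minus strand and the Col4a2 window chr8:11312555-11312854 on the plus strand.
Col4a1: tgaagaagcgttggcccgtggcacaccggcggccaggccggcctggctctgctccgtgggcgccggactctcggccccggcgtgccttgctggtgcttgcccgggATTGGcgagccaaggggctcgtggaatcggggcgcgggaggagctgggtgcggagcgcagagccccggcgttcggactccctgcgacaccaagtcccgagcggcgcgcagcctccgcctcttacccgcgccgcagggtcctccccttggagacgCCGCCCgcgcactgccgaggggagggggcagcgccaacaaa
Col4a2: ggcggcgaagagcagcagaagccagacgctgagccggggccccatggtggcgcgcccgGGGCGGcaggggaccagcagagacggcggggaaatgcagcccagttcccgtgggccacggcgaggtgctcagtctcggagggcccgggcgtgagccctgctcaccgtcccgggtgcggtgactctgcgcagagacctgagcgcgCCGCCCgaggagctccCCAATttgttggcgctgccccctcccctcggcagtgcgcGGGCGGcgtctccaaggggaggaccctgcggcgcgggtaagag
The windows held 1 CCAAT match each, and 1 GGGCGG match in Col4a1 and 3 in Col4a2, of which 1 lay in the shared bases. Neither held TTGCNNAA, TATAAA or CAGACA, the other letters searched. Of 35 collagen genes with a RefSeq window, 13 (37.1%) held CCAAT and 22 (62.9%) GGGCGG, against 41.1% and 38.2% of all 27025 windows. GGGCGG was in 68.8% of the windows of genes tested for expression. TTGCNNAA, the outer letters of the palindromic C/EBP site, was in 3 (8.57%) against 12.2%, TATAAA in 5 (14.3%) against 15.7% and CAGACA in 9 (25.7%) against 23.6%. These are letter matches and not known sites.

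The other head-to-head pairs were weakly expressed or moved apart. Col4a3 and Col4a4, chains of the kidney and eye type IV network, start 71 bases apart and stood at medians of 0.172 and 0.0981 TPM. Col4a3 rose by 0.86 ± 0.26 (edgeR adjusted p = 0.0210) and by 1.29 ± 0.27 (edgeR adjusted p = 0.00285) after IL-17, but the call in unstimulated cells ended without siControl replicate 1, siControl replicate 2 or siIMP2 replicate 3 (adjusted p 0.0504 to 0.0935). Only 24.1% of the gene's reads mapped uniquely, so its counts are uncertain. In a fit of uniquely mapped gene reads its unstimulated call was lost and its call after IL-17 stayed. Col4a4 was at 1.01 ± 0.37 (edgeR adjusted p = 0.0528) and rose by 1.45 ± 0.39 (edgeR adjusted p = 0.0127) after IL-17, a call that ended without siIMP2_IL17 replicate 2 (adjusted p = 0.0515). Col4a5 and Col4a6 start 1308 bases apart on chromosome X. Col4a6 fell, at -0.82 ± 0.19 (edgeR adjusted p = 0.00478) and -0.59 ± 0.19 (edgeR adjusted p = 0.0283). Col4a5 was at 0.18 ± 0.08 (edgeR adjusted p = 0.0899) and rose by 0.22 ± 0.08 (edgeR adjusted p = 0.0437) after IL-17. After IL-17 the Col4a5 call ended without any 1 of 6 libraries (siControl_IL17 or siIMP2_IL17 replicates 1 and 2, siIMP2 replicate 1 or siControl replicate 2; adjusted p 0.0507 to 0.204, log2 change down to 0.14 without siIMP2_IL17 replicate 2). The Col4a6 call ended without any 1 of 5 libraries (siControl_IL17 replicates 1 and 2, or any siIMP2_IL17 replicate; adjusted p 0.0655 to 0.103).

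Type VI chains split. Col6a1 had 368, 336 and 620.5 CPM in siIMP2, against 569, 489.7 and 1054 CPM in siControl. Col6a2 had 158, 134 and 387 CPM in siIMP2, against 256, 211 and 651 CPM in siControl. The RB160 libraries were high in both groups, and within each set siIMP2 was the lower. Col6a1 fell, with a log2 change of -0.65 ± 0.09 (edgeR adjusted p = 0.000237), and so did Col6a2, with -0.70 ± 0.12 (edgeR adjusted p = 0.000665). After IL-17 Col6a1 had 348, 306 and 500.5 CPM in siIMP2_IL17, against 526, 437 and 903 CPM in siControl_IL17. Col6a2 had 149, 117 and 294 CPM in siIMP2_IL17, against 236, 185 and 528 CPM in siControl_IL17. The order within each set was the same, with changes of -0.65 ± 0.10 (edgeR adjusted p = 0.000219) for Col6a1 and -0.72 ± 0.12 (edgeR adjusted p = 0.000542) for Col6a2. Col6a3 had 1862, 2014 and 1675 CPM in siIMP2, against 1256, 1082 and 1407 CPM in siControl. Every siIMP2 value of Col6a3 was above every siControl value. Col6a3, the long chain that joins the Col6a1 and Col6a2 chains in the type VI trimer, rose by 0.57 ± 0.12 (edgeR adjusted p = 0.00238) and by 0.60 ± 0.12 (edgeR adjusted p = 0.00153) after IL-17. Its gene lies on chromosome 1 and those of Col6a1 and Col6a2 next to each other on chromosome 10, on the same strand and 85161 bases apart.

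The Col6a3 increase differed between the title sets. Over both stimulation states it was 0.27 within the RB160 titles and 0.75 within the NA titles, a difference of -0.47 ± 0.11 (edgeR adjusted p = 0.0266, interaction term added after the data were seen). It was the 1 collagen gene of 34 for which that test called the siRNA effect different between sets, where 5.2% of all genes were called. At an unadjusted p under 0.05 there were 12 of 34, against 19.8% of all genes. Col6a4 fell, at -0.61 ± 0.18 (edgeR adjusted p = 0.0174), and was at -0.24 ± 0.17 after IL-17. The Col6a4 call ended without siIMP2 replicate 1, siControl replicate 3 or siIMP2 replicate 3 (adjusted p 0.0549 to 0.0672, log2 change -0.39 without siControl replicate 3).

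**Figure D3:**
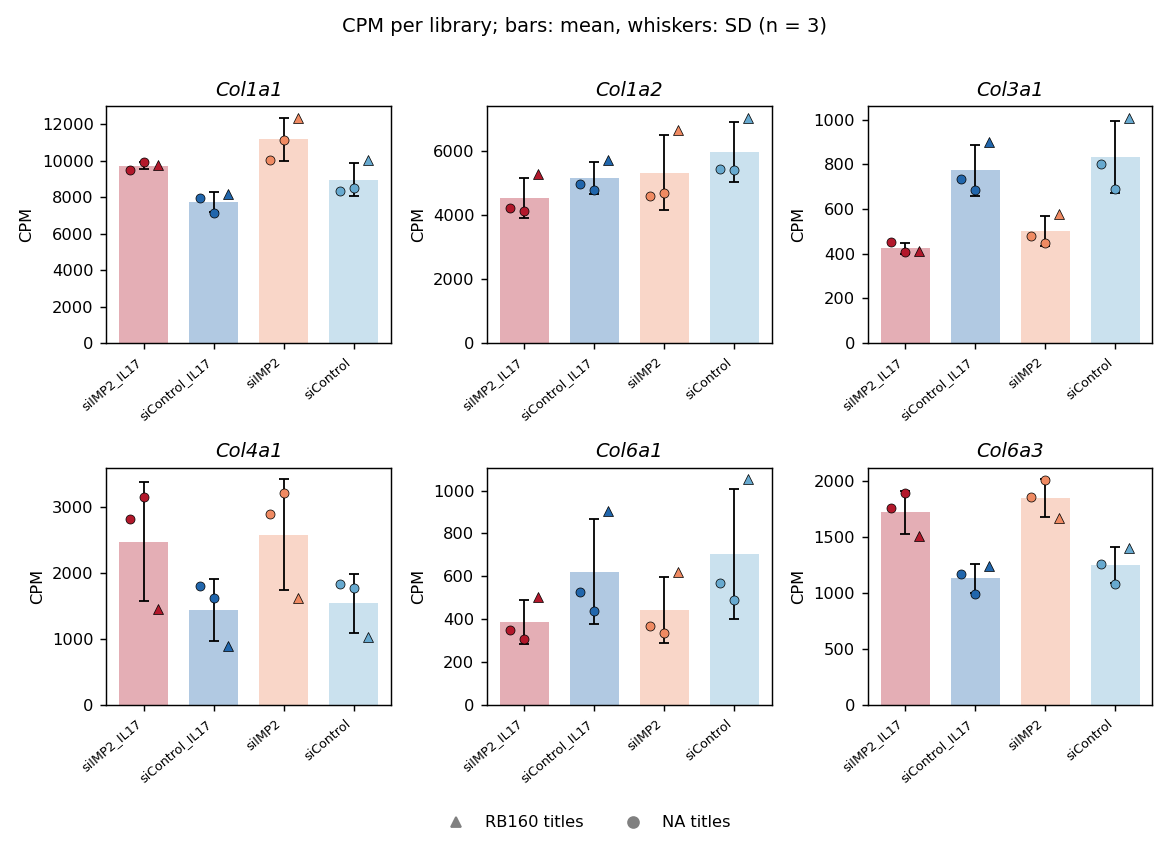
CPM of 6 collagen chain genes in each library; bars are group means, whiskers the SD over 3 libraries, triangles RB160 titles and circles NA titles. With the IMP2 siRNA Col3a1 and Col6a1 are lower and Col4a1 and Col6a3 higher within each title set, with and without IL-17.

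Of the FACIT chains, 5 tested of 9, 0 rose and 3 fell in siIMP2, where 16.1% of all genes were higher and 16.7% lower. After IL-17, 0 rose and 2 fell, where 16.7% of all genes were higher and 16.7% lower. Counts among 5 genes are too few to tell a trait of the class. Col14a1 had 0.351, 0.262 and 6.43 CPM in siIMP2, against 0.573, 0.209 and 19.4 CPM in siControl, so that nearly all of its signal was in the RB160 libraries. Its log2 change was -1.29 ± 0.26 (edgeR adjusted p = 0.00252), and the call ended without siIMP2 replicate 3 (log2 change -0.58) or siControl replicate 3 (-0.76; adjusted p 0.194 to 0.313). After IL-17 it was -1.54 ± 0.27 (edgeR adjusted p = 0.000759), and leaving out siIMP2_IL17 replicate 3 ended that call too (adjusted p = 0.0583). Col20a1 fell, at -1.39 ± 0.26 (edgeR adjusted p = 0.00138) and -1.19 ± 0.25 (edgeR adjusted p = 0.00279). Its exon counts were low, 15, 28 and 34 in siIMP2 against 68, 50 and 85 in siControl. Outside exons it had 94, 105 and 104 reads in siIMP2 against 133, 121 and 102 in siControl. Of its reads 76.8% mapped uniquely, and it overlaps 9230112E08Rik. Col16a1 fell in unstimulated cells, at -0.22 ± 0.07 (edgeR adjusted p = 0.0262), a call that ended without siIMP2 replicates 1 or 3 or siControl replicates 2 or 3 (adjusted p 0.0656 to 0.130). Col12a1, the FACIT chain with the highest level, was at -0.05 ± 0.09 and -0.05 ± 0.09 and Col9a3 at 0.13 ± 0.39 and 0.55 ± 0.38, and neither was called.

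Col15a1, a multiplexin of basement membrane zones, also fell. Col15a1 had 4.18, 4.14 and 2.86 CPM in siIMP2, against 9.89, 7.91 and 9.44 CPM in siControl. All siIMP2 values were below all siControl values, and the log2 change was -1.31 ± 0.16 (edgeR adjusted p = 6.91e-05). After IL-17 it had 3.01, 3.01 and 1.99 CPM in siIMP2_IL17, against 7.54, 6.13 and 6.94 CPM in siControl_IL17, again without overlap, and changed by -1.39 ± 0.17 (edgeR adjusted p = 5.90e-05). Col18a1, which gives rise to endostatin, fell in unstimulated cells, at -0.34 ± 0.08 (edgeR adjusted p = 0.00580), and was at -0.21 ± 0.08 after IL-17. Of its reads 76.7% mapped uniquely. It overlaps Slc19a1, and the strand used in counting is not given in the sources used here. Col8a2 and Col8a1 form the lattice of type VIII collagen. Col8a2 fell, at -1.36 ± 0.26 (edgeR adjusted p = 0.00153) and -0.83 ± 0.26 (edgeR adjusted p = 0.0247), and Col8a1 was at 0.01 ± 0.07 and 0.12 ± 0.07. Without siIMP2 replicate 3 the Col8a2 change in unstimulated cells was -2.10. After IL-17 the call ended without siControl_IL17 replicates 1 or 3 or any siIMP2_IL17 replicate (adjusted p 0.0502 to 0.0921).

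Col23a1 had 0.468, 0.671 and 0.213 CPM in siIMP2, against 2.98, 2.51 and 0.262 CPM in siControl. In the RB160 libraries Col23a1 was under 1 CPM in both groups, and in the NA libraries siIMP2 was lower. The transmembrane chain Col23a1 fell, with a log2 change of -1.93 ± 0.35 (edgeR adjusted p = 0.00107) and of -1.78 ± 0.29 (edgeR adjusted p = 0.000480) after IL-17. Col17a1, a hemidesmosome collagen of epithelium, was at -0.25 ± 0.27 and was not called. Col28a1 fell, at -1.17 ± 0.30 (edgeR adjusted p = 0.0104) and -1.10 ± 0.32 (edgeR adjusted p = 0.0176), and its calls ended without replicate 3 of either group compared (adjusted p 0.0533 to 0.100 unstimulated and 0.137 to 0.358 after IL-17, where the log2 change without siIMP2_IL17 replicate 3 was -0.56). Col7a1, the anchoring fibril chain, was at 0.18 ± 0.15 and 0.20 ± 0.15. Col10a1, the chain of hypertrophic cartilage, was at 0.03 ± 0.13, but 7.08% of its reads mapped uniquely and it overlaps Nt5dc1 on the other strand, so its counts are uncertain.

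Ratios of chains within a library do not depend on its size. The TPM ratio of Col1a1 to Col1a2 was 3.43 to 4.43 in the 6 libraries with the IMP2 siRNA, against 2.63 to 2.96 in the 6 with the control siRNA. The ranges did not overlap, and the mean difference within title sets was 0.51 on the log2 scale (adjusted p = 0.00762). Adjusted p-values here are from exact two-sided permutation tests of the libraries within title sets, adjusted over 8 pairs, and the smallest p the 420 permutations allow is 0.00476. The ratio of Col3a1 to Col1a1 was 0.0270 to 0.0321 in the 6 libraries with the IMP2 siRNA, against 0.0540 to 0.0737 in the 6 with the control siRNA, a difference of -1.11 on the log2 scale (adjusted p = 0.00762). That of Col6a3 to Col6a1 was 0.988 to 2.26 in the 6 libraries with the IMP2 siRNA, against 0.489 to 0.828 in the 6 with the control siRNA, a difference of 1.24 on the log2 scale (adjusted p = 0.00762). Here too no library with the IMP2 siRNA overlapped the others. Col8a1 to Col8a2 shifted by 1.42 on the log2 scale (adjusted p = 0.00762) and Col4a5 to Col4a6 by 0.89 on the log2 scale (adjusted p = 0.00762). The Col8a1 to Col8a2 ratio was 26.9 to 990 with the IMP2 siRNA and 12.8 to 200 with the control siRNA. Those ranges overlapped across title sets and not within them, and Col8a2 had as few as 6 counts in a library. Col4a5 to Col4a6 was 87.0 to 110 against 45.3 to 73.4, without overlap.

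In 3 pairs of partner chains the test found no shift. Col4a1 to Col4a2 was 1.03 to 1.36 in the 6 libraries with the IMP2 siRNA, against 1.00 to 1.36 in the 6 with the control siRNA, a difference of 0.02 on the log2 scale (adjusted p = 0.295). Col6a1 to Col6a2 differed by 0.06 on the log2 scale (adjusted p = 0.212) and Col5a1 to Col5a2 by 0.14 on the log2 scale (adjusted p = 0.127). For Col5a1 to Col5a2 the difference was 0.37 within the RB160 titles and 0.03 within the NA titles. A p that misses the threshold does not show equal ratios. When single libraries were left out, the difference for Col4a1 to Col4a2 stayed between 0.01 and 0.03.

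**Figure D4:**
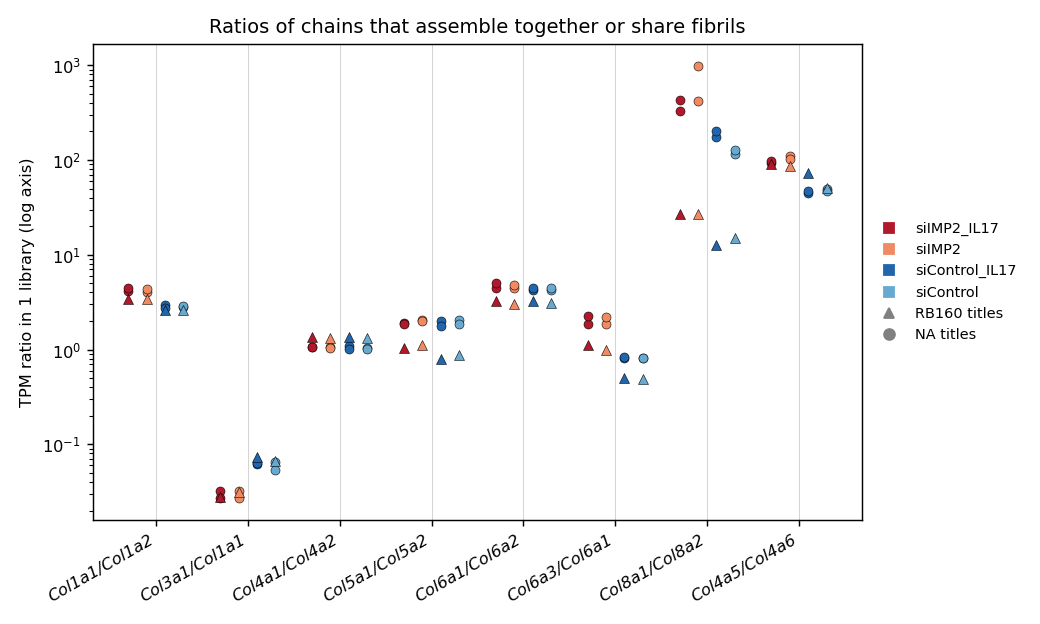
TPM ratio of 2 collagen chains in each library on a log axis, for 8 pairs, coloured by group and shaped by title set, with IMP2 siRNA libraries left of control siRNA libraries in each pair. Col1a1/Col1a2 and Col6a3/Col6a1 are higher and Col3a1/Col1a1 lower with the IMP2 siRNA in every library, whereas Col4a1/Col4a2 lies between 1.03 and 1.36 with the IMP2 siRNA and between 1.00 and 1.36 with the control siRNA.

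Reads that fell on the genes outside exons, mostly introns in a gene of many exons, gave a second readout from the same libraries. They were 4.49% to 6.42% of gene reads. In unstimulated cells 30 collagen genes could be tested both ways, and 4 were higher and 6 lower in siIMP2, against 10.8% of all genes called, 5.91% higher and 4.89% lower. Col4a1 changed by 0.74 ± 0.11 outside exons, against 0.73 ± 0.07 in exons. Col4a2 (0.54 ± 0.11 outside exons), Col5a1 (0.47 ± 0.11) and Col6a3 (0.47 ± 0.11) were higher there too. Col3a1 (-1.02 ± 0.16 outside exons), Col6a1 (-0.74 ± 0.15), Col6a2 (-0.89 ± 0.19), Col2a1 (-0.79 ± 0.15), Col14a1 (-1.76 ± 0.27) and Col23a1 (-2.07 ± 0.67) were lower. Col14a1 had 23, 16 and 284 such reads in siIMP2 and 21, 26 and 1151 in siControl, so that its difference lay in the RB160 libraries. Col23a1 had only 2, 1 and 3 in siIMP2 and 8, 15 and 2 in siControl, and its RB160 libraries ran the other way.

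Col1a1 was at 0.14 ± 0.13 outside exons and was not called there (edgeR adjusted p = 0.549), with 969 to 3427 such reads a library. Col5a2 was at 0.15 ± 0.10 and Col1a2 at -0.18 ± 0.12, neither called. Of the 20 genes called in exons among those tested both ways, 10 were not called outside them. After IL-17, 4 were higher and 7 lower outside exons, against 10.7% of all genes, 6.03% higher and 4.67% lower. Col12a1 was lower outside exons there, at -0.41 ± 0.11, against -0.05 ± 0.09 in exons. The mean IL-17 effect called 0 of 30 collagen genes outside exons by edgeR, where 0.931% of all genes were called. At an unadjusted p under 0.05 there were 11 of the 30. The share of all genes at that unadjusted p was not computed for these reads, so the 11 have no background. The difference between exon and outside-exon changes was not tested.

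Collagen mRNAs are the best known targets of the miR-29 family, which binds their 3′ untranslated regions. The mature miRNAs, from RefSeq, share the seed in capitals (bases 2 to 8).
mmu-miR-29a-3p: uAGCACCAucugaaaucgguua
mmu-miR-29b-3p: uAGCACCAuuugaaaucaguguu
mmu-miR-29c-3p: uAGCACCAuuugaaaucgguua
The matching letters TGGTGCT occurred in the 3′ untranslated region of 20 of 32 tested collagen genes with an annotated region (62.5%), against 14.3% of 12447 genes tested, at median lengths of 965 and 1002 bases. They were in 7 of 7 genes that rose in siIMP2, in 6 of 14 that fell and in 7 of 11 not called, or 1.17, 0.431 and 0.776 matches per kilobase. Median region lengths were 1423, 778 and 1110 bases. Of the 14 matches in the genes that rose, Col5a1 and the weakly expressed Col4a3 held 4 each. The shares among all genes called higher, lower or not called were not computed, so the split by call has no background. This is a description with no test, and the levels of the miRNAs were not analysed here. The first site of 5 chains the results turn on is printed with the match in capitals, from the reference genome of the same build, at chr8:11199750-11199779 (Col4a1, minus strand), chr8:11448348-11448377 (Col4a2, plus), chr2:28037993-28038022 (Col5a1, plus), chr1:90767400-90767429 (Col6a3, minus) and chr1:45348971-45349000 (Col3a1, plus).
Col4a1: ccgtcacaacaTGGTGCTactcccccccct
Col4a2: gaaggccacgtTGGTGCTtatccttctgta
Col5a1: ctatgaacattTGGTGCTgaattttttaca
Col6a3: acctgtcaataTGGTGCTaaatgtgtctat
Col3a1: aaatgtctcaaTGGTGCTataataaataaa
Col6a1, Col6a4, Col1a2, Col8a2, Col14a1, Col20a1, Col23a1 and Col28a1, which fell, held no match, while Col3a1, Col2a1, Col4a6, Col6a2, Col15a1 and Col16a1, which also fell, held 1 each. Col5a1 held 4 matches and Col5a3, which was not called, 3.

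Genes that modify, fold, process and cross-link collagen were followed as lists, with 32.9% of all genes called as the background, 16.1% higher and 16.7% lower. Of 14 tested prolyl and lysyl modification genes 3 rose and 1 fell in siIMP2, or 28.6% called. P3h1 and Plod1, a prolyl and a lysyl hydroxylase, rose by 0.31 and 0.39 on the log2 scale, P4ha1 rose by 0.21 and P4ha3 was lower at -0.21 (edgeR adjusted p = 0.00242, 0.00410, 0.0210 and 0.0494). Of 13 chaperone and secretion genes 4 rose and 0 fell. Both directions together, neither this list nor the modification list was called more often than all genes. Serpinh1, which encodes the collagen chaperone HSP47, rose by 0.41, with Sparc at 0.29, Fkbp10 at 0.25 and the secretory transcription factor gene Creb3l1 at 0.34 (edgeR adjusted p = 0.000294, 0.00257, 0.00280 and 0.0120). Of 7 cross-linking genes 4 rose and 0 fell. Transglutaminase Tgm2 rose by 1.58, and the lysyl oxidase genes Loxl2, Loxl3 and Loxl4 by 0.61, 0.26 and 0.20 (edgeR adjusted p = 3.64e-06, 0.00206, 0.00515 and 0.0412).

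Procollagen processing split, with 3 of 7 higher and 3 lower. Tll1 and Bmp1, proteases that remove the C-propeptide, rose by 1.02 and 0.28, and Fn1, which encodes the fibronectin on which collagen fibrils assemble, by 0.31. Adamts2 and Adamts14, which remove the N-propeptide, and the enhancer gene Pcolce were lower, at -0.48, -0.52 and -0.40 (edgeR adjusted p for the 6 genes 0.000123 to 0.00777). Of 10 receptor and uptake genes 3 rose and 3 fell. The integrin genes Itga1, Itga11 and Itgb1 rose by 0.78, 0.62 and 0.40, and the collagen uptake receptor gene Mrc2 was lower at -0.69, with the adhesion receptor genes Adgrg6 at -0.50 and Adgrg1 at -0.53 (edgeR adjusted p for the 6 genes 6.64e-06 to 0.00751). Of 15 basement membrane partners of type IV collagen 7 rose and 1 fell, among them Lamb1 at 0.34, Lama5 at 0.45 and Lamb3 at 1.65, and Lama1 at -0.83, all laminin chain genes (edgeR adjusted p 0.000159 to 0.00522). In siIMP2_IL17 against siControl_IL17 the same tested genes were counted, where 33.4% of all genes were called, 16.7% higher and 16.7% lower. The higher and lower counts were 2 and 2 for modification, 3 and 1 for chaperones and 3 and 3 for processing. They were 4 and 0 for cross-linking, 5 and 3 for receptors, and 8 and 1 for basement membrane partners.

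Few IL-17 effects on collagen genes passed the test. In siIMP2_IL17 against siIMP2, 1 of 34 rose and 1 fell, where 0.511% of all genes were called, 0.343% higher and 0.168% lower. In siControl_IL17 against siControl, 0 rose and 1 fell, where 0.423% were called, 0.255% higher and 0.168% lower. Col11a1 fell in both. It had 154, 151 and 257 CPM in siIMP2_IL17 against 199, 198 and 394 CPM in siIMP2, and 144, 138 and 239 CPM in siControl_IL17 against 194, 176 and 376 CPM in siControl. Within each title set the IL-17 libraries were the lower, while the RB160 libraries were high throughout. The log2 changes were -0.46 ± 0.07 (edgeR adjusted p = 0.0107) with the IMP2 siRNA and -0.48 ± 0.07 (edgeR adjusted p = 0.0110) with the control siRNA. Each call ended without replicate 3 of either group compared, with adjusted p 0.0729 to 0.0765 with the IMP2 siRNA and 0.0721 to 0.0732 with the control siRNA.

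Col5a3 had 152, 140.4 and 35.9 CPM in siIMP2_IL17 against 99.8, 102 and 22.9 CPM in siIMP2. The IL-17 libraries were the higher within each set. Col5a3 rose by 0.57 ± 0.08 (edgeR adjusted p = 0.00981) with the IMP2 siRNA, and with the control siRNA it was at 0.34 ± 0.08 (edgeR adjusted p = 0.113). In siControl_IL17 it had 147, 132 and 26.3 CPM, against 112, 98.2 and 23.2 CPM in siControl. The mean IL-17 effect over both siRNAs called 4 collagen genes, 2 higher and 2 lower, against 2.72% of all genes, 1.31% higher and 1.42% lower. At an unadjusted p under 0.05 there were 18 of 34 collagen genes, against 16% of all genes. Col5a3 rose by 0.46 ± 0.06 (edgeR adjusted p = 0.00101) and Col23a1 by 1.30 ± 0.23 (edgeR adjusted p = 0.00855). Col11a1 fell, at -0.47 ± 0.05 (edgeR adjusted p = 0.000284), and Col1a2, at -0.21 ± 0.04 (edgeR adjusted p = 0.0249). The Col1a2 call ended without replicate 3 of any 1 group (adjusted p 0.0598 to 0.0780).

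Col23a1 had 1.95, 1.16 and 0.442 CPM in siIMP2_IL17 against 0.468, 0.671 and 0.213 CPM in siIMP2, and 5.23, 5.17 and 1.57 CPM in siControl_IL17 against 2.98, 2.51 and 0.262 CPM in siControl. Every IL-17 library was above the unstimulated library of its own set and siRNA. Col1a1 was at -0.20 ± 0.05 (edgeR adjusted p = 0.0553) and Col5a1 at -0.24 ± 0.06 (edgeR adjusted p = 0.0584) and were not called, and 24 of the 34 mean effects were below 0, with a median of -0.13 against -0.01 over all genes. Without the title-set term no collagen gene was called for IL-17, and DESeq2 called 9 for the mean effect. The IL-17 effect with the IMP2 siRNA minus that with the control siRNA called 0 collagen genes by edgeR and 0 by DESeq2. Over all genes edgeR called 0%. At an unadjusted p under 0.05 there was 1 of 34 collagen genes, against 1.11% of all genes. Of the genes tested in the 6 partner lists, the mean effect called P4ha3 (-0.34), Loxl3 (-0.28) and Nid2 (-0.36), all lower (edgeR adjusted p = 0.00450, 0.00360 and 0.00200). Over all genes tested 2.72% were called, 1.31% higher and 1.42% lower, and so few calls do not tell a trait of the lists.

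**Figure D5:**
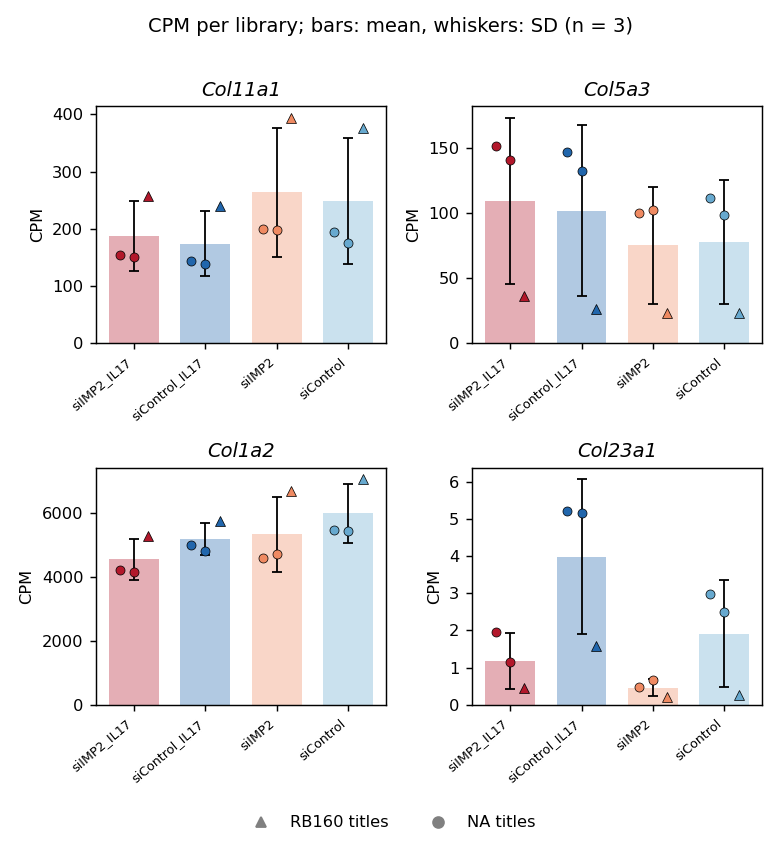
CPM of the 4 collagen chain genes called for the mean IL-17 effect; bars are group means, whiskers the SD over 3 libraries, triangles RB160 titles and circles NA titles. Col11a1 and Col1a2 are lower and Col5a3 and Col23a1 higher in IL-17 libraries than in unstimulated libraries of the same siRNA and title set.

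More collagen genes were called between the title sets than for either treatment, and the same held over all genes tested. Of these, 69.5% were called between sets, 32.9% and 33.4% for the siRNA, and at most 2.72% for IL-17. In the 4 RB160 libraries against the 8 NA libraries 13 of 34 rose and 14 fell, against 34.9% and 34.6% of all genes. What the title prefixes stand for is not given in the sources used here. Col14a1 had 6.12, 6.43, 18.6 and 19.4 CPM in the RB160 libraries of siIMP2_IL17, siIMP2, siControl_IL17 and siControl, and spanned 0.157 to 0.584 CPM with a median of 0.307 CPM in NA libraries. Col8a2 spanned 5.60 to 9.95 CPM in RB160 and 0.175 to 1.45 CPM in NA libraries, Col28a1 1.55 to 4.71 CPM in RB160 and 0.117 to 0.531 CPM in NA libraries, Col2a1 286 to 616 CPM in RB160 and 98.0 to 171 CPM in NA libraries and Col11a1 239 to 394 CPM in RB160 and 138 to 199 CPM in NA libraries. None of these ranges overlapped. The log2 differences were 5.11 ± 0.18 (edgeR adjusted p = 1.30e-10) for Col14a1, 3.41 ± 0.17 (edgeR adjusted p = 2.98e-09) for Col8a2, 3.31 ± 0.21 (edgeR adjusted p = 1.88e-08) for Col28a1, 1.74 ± 0.08 (edgeR adjusted p = 9.03e-10) for Col2a1 and 0.88 ± 0.05 (edgeR adjusted p = 7.59e-09) for Col11a1.

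In the other direction Col5a3 spanned 22.9 to 35.9 CPM in RB160 libraries and 98.2 to 152 CPM in NA libraries, Col4a2 626 to 1153 CPM in RB160 and 1528 to 2965 CPM in NA libraries, Col7a1 15.5 to 24.4 CPM in RB160 and 54.9 to 83.5 CPM in NA libraries and Col6a4 1.35 to 3.09 CPM in RB160 and 5.09 to 7.56 CPM in NA libraries. Again no range overlapped. Col4a1 spanned 893 to 1614 CPM in RB160 and 1607 to 3207 CPM in NA libraries, which met at the edges. The log2 differences were -2.19 ± 0.07 (edgeR adjusted p = 5.95e-11) for Col5a3, -1.29 ± 0.06 (edgeR adjusted p = 8.13e-10) for Col4a2, -0.93 ± 0.05 (edgeR adjusted p = 1.24e-08) for Col4a1, -1.70 ± 0.12 (edgeR adjusted p = 6.38e-08) for Col7a1 and -1.75 ± 0.14 (edgeR adjusted p = 2.03e-07) for Col6a4. Leaving out siControl or siIMP2 replicate 3 ended the title-set call of Col1a1, siControl_IL17 or siIMP2_IL17 replicate 3 that of Col20a1, and siControl or siControl_IL17 replicate 3 that of Col4a4. Collagen genes took more of the RB160 libraries, 2.77% to 3.34% of counts with the IMP2 siRNA and 2.73% to 3.16% with the control siRNA, against 2.57% to 2.93% with the IMP2 siRNA and 2.20% to 2.53% with the control siRNA in NA libraries. Marker lists moved with the set as well. Pdgfra was higher by 2.78 and Lum by 3.94 on the log2 scale in RB160 libraries, Thy1 lower by 4.50, and chondrocyte markers summed to 49.7 to 77.9 CPM in RB160 and 30.1 to 38.7 CPM in NA libraries, with all 5 tested members higher. Counts on mitochondrial genes made 3.31% to 3.71% with the IMP2 siRNA and 3.34% to 3.85% with the control siRNA in RB160 libraries. In NA libraries they made 5.41% to 6.78% with the IMP2 siRNA and 6.06% to 6.90% with the control siRNA. The part of these markers and of the mitochondrial share in the collagen differences was not tested.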

How the data were processed

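RNA-seq was measured in 12 libraries, 3 in each of 4 groups, and samples were grouped by the treatment in their labels. Per the file headers, the authors trimmed paired reads and deposited raw counts per gene (exon reads, unique gene reads and total gene reads), TPM and gene and exon lengths. The deposited series table also holds the authors' own log2 fold changes and p-values adjusted for the false discovery rate, which were used only where named. The submitters' processing notes name mm10. Which aligner and counter were run, and whether strand was used, is something the sources used here do not state.

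The deposited counts were filtered with filterByExpr (minimum count 10, minimum total 15), which left 13702 genes, scaled by TMM and fitted with edgeR 4.0.16 in R 4.3.3 (quasi-likelihood test, all 12 libraries, group plus title set). P-values were adjusted by the Benjamini-Hochberg method over all genes tested, with a threshold of 0.05. DESeq2 1.42.0 was an alternative. Reads outside exons were total gene reads minus exon reads and had a fit of their own on 12463 genes. Chain ratios were tested as log2 ratios of exon counts + 0.5, and printed as TPM ratios. Each script that tested many genes was tested on simulated data. Python 3.11.15, pandas 2.3.3 and matplotlib 3.10.9 were used for the rest.

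The collagen genes, the lists of other genes and the tests were chosen with earlier results of these data known. Values were given per library for Col1a1, Col1a2 and Col3a1 and for up to 5 called collagen genes of smallest p per direction and comparison, as ranges where title sets were compared, and for other collagen genes as log2 changes. From each list of other genes, up to 4 called genes of smallest p per direction were named, except that 1 such gene is not reported here.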

Additional observations from a re-analysis of the deposited data

Results flagged for a closer look

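The effect of the IMP2 siRNA on Col6a3, the long chain of type VI collagen, differed between the title sets. The siRNA effect within the RB160 titles minus that within the NA titles was -0.47 on the log2 scale by a test of the difference itself (edgeR adjusted p = 0.0266), with increases of 0.27 within the RB160 titles and 0.75 within the NA titles. Each set holds 1 or 2 libraries of a group. The cause of the difference was not tested.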

How the results depend on the processing

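No result reversed its direction under any alternative run. Without the title-set term, 2 collagen genes were called in siIMP2 against siControl and 2 in siIMP2_IL17 against siControl_IL17, against 22 in each with it, and the IL-17 counts were 0 in siIMP2_IL17 against siIMP2, 0 in siControl_IL17 against siControl and 0 for the mean effect. DESeq2 called 4 in siIMP2_IL17 against siIMP2, 3 in siControl_IL17 against siControl and 9 for the mean IL-17 effect. Without the filter on low counts the counts were 3 in siControl_IL17 against siControl and 9 for the mean effect, and a fit of only the groups compared called 5 in siIMP2_IL17 against siIMP2. A fit of uniquely mapped gene reads called 20 in each siRNA comparison. There Col1a2, Col4a3 and Col16a1 lost the unstimulated call, and Col1a2 and Col4a4 the call after IL-17. The cause of these differences was not tested. When each library was left out in turn, 17 to 23 collagen genes were called in siIMP2 against siControl, 17 to 22 in siIMP2_IL17 against siControl_IL17, 1 to 3 in siIMP2_IL17 against siIMP2, 0 to 1 in siControl_IL17 against siControl, 3 to 6 for the mean IL-17 effect and 25 to 28 between title sets. The Col8a1 to Col8a2 ratio difference stayed 1.42 but had an adjusted p of 0.402 when the exact permutation ignored the title sets. Of the alternatives for single collagen genes, 1267 kept their side of the threshold and 130 lost the call. Low counts limit Col4a3, Col4a4, Col8a2, Col14a1, Col20a1, Col23a1 and Col28a1, among others, and 1 CPM stood for 31.9 to 50.9 reads. In the NA libraries of siIMP2, Col8a2 had 13 and 6 counts, Col20a1 15 and 28, and Col28a1 8 and 4. No paired analysis was possible because the labels carry no replicate number shared across groups, the numbers used here follow the order of deposit, and libraries were not paired by that order.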
